A study of Mus musculus with 5 samples.

Results

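Kit-positive progenitors outside the granulocyte-monocyte progenitor (GMP) gate were examined in mouse bone marrow (BM) before and after cyclophosphamide (CTX) chemotherapy. A cell belonged to this population when it held at least 2 unique molecular identifiers (UMIs, counted RNA molecules) of Kit and met 6 exclusions: Mpo, Elane, Prtn3 and Ctsg together under 1% of its UMIs, no Cd79a, fewer than 2 UMIs of Ass1 and Itga1 together, fewer than 5 of Mcpt8 and Prss34 together, fewer than 3 of Siglech, and hemoglobin genes under 10% of its UMIs. Of 21520 cells kept in the 3 whole BM libraries, 125 met the rule: 62 of 7104 in the naive library, 39 of 6126 at day 2 after CTX (D2 CTX) and 24 of 8290 at day 7 (D7 CTX). The members were thus selected on their own measured UMIs of these genes, whose levels are given as a description.

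All 3 libraries came from BALB/c mice, and the study as a whole used mice of both sexes. Each library was a single pool of equal numbers of cells from the tibias and femurs of 3 mice, after red cell lysis and removal of dead cells. CTX, an alkylating drug that crosslinks DNA, was given by intraperitoneal injection at 150 mg/kg, and the naive mice were untreated. The labels describe the cells as BM mononuclear cells and mark them CD45+. With 1 pooled library per condition no difference between conditions has a replicate check, so no test was made, and every 95% interval covers counting error alone. Both CTX libraries were set against the same naive library.

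Kit is the receptor for stem cell factor. Haematopoietic stem cells, multipotent progenitors and the earliest erythroid, megakaryocytic, mast cell and myeloid progenitors carry it, and most lineages lose it as they mature, mast cells being the main exception. Cd34 encodes a surface sialomucin of stem and progenitor cells. Mpo, Elane, Prtn3 and Ctsg encode the azurophil granule proteins that mark GMPs and their granulocytic progeny, so the gate applied here leaves out cells with much RNA of these genes.

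The naive library held 47086837 UMIs over 7649 barcodes, the day 2 library 34764874 over 6608 and the day 7 library 68459527 over 8605. Members were RNA-rich: their median was 12068.5 UMIs in the naive library, 15676 at D2 and 9763 at D7, against 3953.5, 3033.5 and 7189.5 for all kept cells. The rule asks for a number of Kit UMIs and so itself favours cells with more UMIs. Summed over members, the depth was 1387748 UMIs in naive BM, 666472 at D2 and 335796 at D7, so that a gene with no UMI could still be present at up to 2.16, 4.50 and 8.93 CPM (UMIs of the gene divided by all UMIs of these cells and scaled to a common total). The libraries shared 6 to 16 cell barcodes in pairs, and no member barcode was shared.

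Kit itself stood at 152 CPM in the naive members [132, 174], 224 at D2 [189, 262] and 203 at D7 [157, 257]. At the edge of the rule, 33, 17 and 14 members held exactly 2 Kit UMIs, while 93, 64 and 98 cells met every other clause with 1. The highest azurophil share of a member was 0.623% in naive BM, 0.231% at D2 and 0.548% at D7, and the lowest in the GMP gate (Kit at least 2 UMIs, azurophil share at least 1%) was 1.29%, 1.12% and 1.31%. Cd34 was found in 18 of 62 naive, 23 of 39 D2 and 9 of 24 D7 members. After each cell was thinned to 2000 UMIs these shares became 11.7%, 21.1% and 16.7%. Cd34 was thus not detected in most naive and D7 members, and the lineage genes described next show several kinds of cell inside the gate.

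Members made up 0.873% of kept cells in naive BM [0.670, 1.12], 0.637% at D2 [0.453, 0.869] and 0.290% at D7 [0.186, 0.430]. The log2 ratio to naive was −0.46 at D2 [−1.07, 0.15] and −1.59 at D7 [−2.34, −0.89]: lower at D7 by more than counting error, with an interval that spans 0 at D2. A share also depends on the other cells of its library. Many kept cells had at least 20% of their UMIs from mature neutrophil genes. They were 3111 of 7104 in naive BM, 2411 of 6126 at D2 and 6536 of 8290 at D7. A lower share at D7 therefore does not by itself mean fewer members in the marrow. Among the 4447 naive, 3106 D2 and 7740 D7 cells that had at least 3000 UMIs, each thinned to that number, the share was 0.292% in naive BM and 0.547% at D2 (log2 ratio 0.90 [−0.22, 2.07]), and the D7 ratio was −1.33 [−2.74, 0.01]. Thinning and the loss of shallower cells were not separated. With Kit at least 1 UMI in place of 2 the D7 ratio was −0.57 [−0.92, −0.22]. The D2 ratio was then −0.38 [−0.75, −0.01], with an interval just below 0. The exclusion of Ass1 and Itga1 by itself removed 74 of the 147 cells with at least 2 Kit UMIs at D2 against 27 of 114 in naive BM and 5 of 61 at D7. Cells with at least 2 Kit UMIs, before any exclusion, were 1.60% of kept cells in naive BM, 2.40% at D2 and 0.736% at D7. In the GMP gate there were 17, 14 and 27 cells, and its log2 ratio to naive was −0.07 [−1.20, 1.04] at D2 and 0.44 [−0.48, 1.41] at D7. At D7 the interval of the GMP gate lay above that of the members.

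Free RNA can place Kit UMIs in cells that do not express it. Among cells with at least 20% of their UMIs from mature neutrophil genes, which are expected to lack Kit where they are mature, 0.193%, 0.290% and 0.0918% held at least 2 Kit UMIs (median depth 4044, 3837 and 7120 UMIs). Among T cells the count was 1 of 148 in naive BM, 0 of 290 at D2 and 0 of 16 at D7, where 0 allows up to 1.03% and 18.8%. B lineage cells (at least 2 UMIs of Cd79b) had higher shares, 0.393%, 2.39% and 2.23%, at median depths of 3048, 2633 and 9977 UMIs. Whether the Kit UMIs of these 3 classes are free RNA or the cells' own was not tested.

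**Figure D1:**
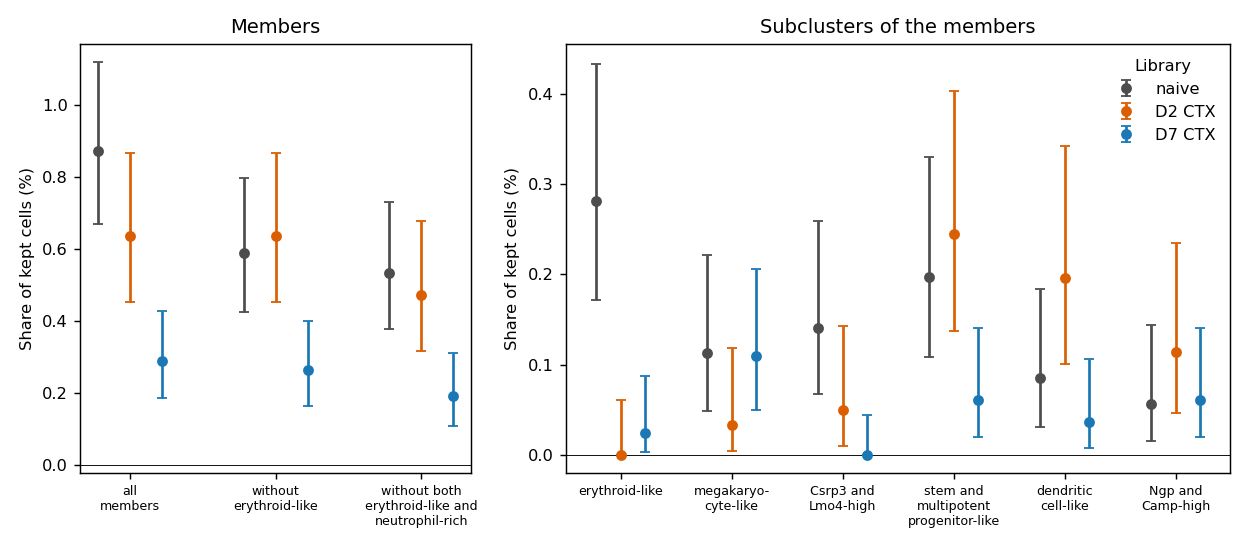
Share of kept cells (%) by library, with exact binomial 95% intervals that cover counting error. Left, all members, members without the erythroid-like cells, and members without both the erythroid-like and the neutrophil-rich cells. Right, the 6 subclusters. The naive and D2 shares of all members are 0.873% and 0.637%, and without erythroid-like cells 0.591% and 0.637%. The D7 points are the lowest in each set on the left.

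Clustering of the 125 cells gave 6 groups, named by marker genes. They describe what the gate holds: the genes that define a cluster are its description, not a result. The erythroid-like cluster had 20 naive cells, 0 at D2 and 2 at D7. Its leading genes were Car1 (carbonic anhydrase 1), Blvrb (biliverdin reductase B), Rhd (Rh blood group antigen), Ermap (an erythroid membrane protein) and Mt2 (a metallothionein), with UMIs in 21 to 22 of its 22 cells. The megakaryocyte-like cluster had 8, 2 and 9 cells, and was led by Pf4 (platelet factor 4) and Cavin2, found in 9 and 12 of its 19 cells, and by Ppbp (a platelet chemokine), Npy and Treml1, found in 1, 2 and 4. Its name therefore rests on a minority of its cells. The Csrp3 and Lmo4-high cluster had 10, 3 and 0 cells. Gzmb led it but was found in 4 of its 13 cells, Csrp3, Cpa3 (mast cell carboxypeptidase), Scin and Lmo4 in 7 to 9, and Gata2 in all 13. Its markers are those of basophils and mast cells, but the median of its 10 naive cells was 1548 CPM of the erythroid list and 580.1 CPM of the basophil and mast cell list. The latter list holds Mcpt8 and Prss34, which the rule limits. The cluster is therefore called by Csrp3 and Lmo4, which are among its leading genes. Lmo4 was also found in 60 of the 112 other members, so the name refers to its level.

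The stem and multipotent progenitor-like cluster had 14 naive, 15 D2 and 5 D7 cells. It was led by Hlf, a transcription factor of stem cells found in 28 of its 34 cells, with Adgrl4, Gcnt2, Mecom (another stem cell transcription factor) and Msi2. The dendritic cell-like cluster had 6, 12 and 3 cells, led by the MHC class II genes H2-Aa, H2-Ab1 and H2-Eb1, by Cd74, the invariant chain, and by Irf8, a transcription factor of dendritic cells and monocytes. This cluster was mixed: Irf8 was in 16 of its 21 cells, Cd74 in 10 and Dntt, the terminal transferase of lymphoid precursors, in 6. The Ngp and Camp-high cluster had 4, 7 and 5 cells, led by the neutrophil granule genes Ngp, Camp, Chil3, Lcn2 and Wfdc21. Most of its leading genes belong to the mature neutrophil list, but its cells carried cell cycle RNA: after thinning to 2000 UMIs, at least 10 G2/M UMIs were found in 3 of 4, 7 of 7 and 5 of 5 of them, so it is not called mature here. In these 16 cells the data go against the label of progenitor outside the granulocytic route. Their medians were 40.6%, 31.4% and 45.8% of UMIs from the mature neutrophil list, with 8, 24 and 10 Kit UMIs in all.

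The members' neutrophil shares were split by a gap. In naive BM the highest value under 2% was 0.606% and the lowest above it was 2.48%, at D2 they were 1.31% and 3.99%, and at D7 0.285% and 16.9%. Above the gap lay 6 naive, 10 D2 and 6 D7 members, called neutrophil-rich below. Of the members, 3, 3 and 1 were among the cells with the highest doublet scores. Of these, 1, 2 and 1 lay in the Ngp and Camp-high cluster. Whether cells of that cluster are doublets was not tested. The results are given with and without the neutrophil-rich and erythroid-like cells, since both groups differ in number between libraries, a comparison chosen after the data were seen.

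**Figure D2:**
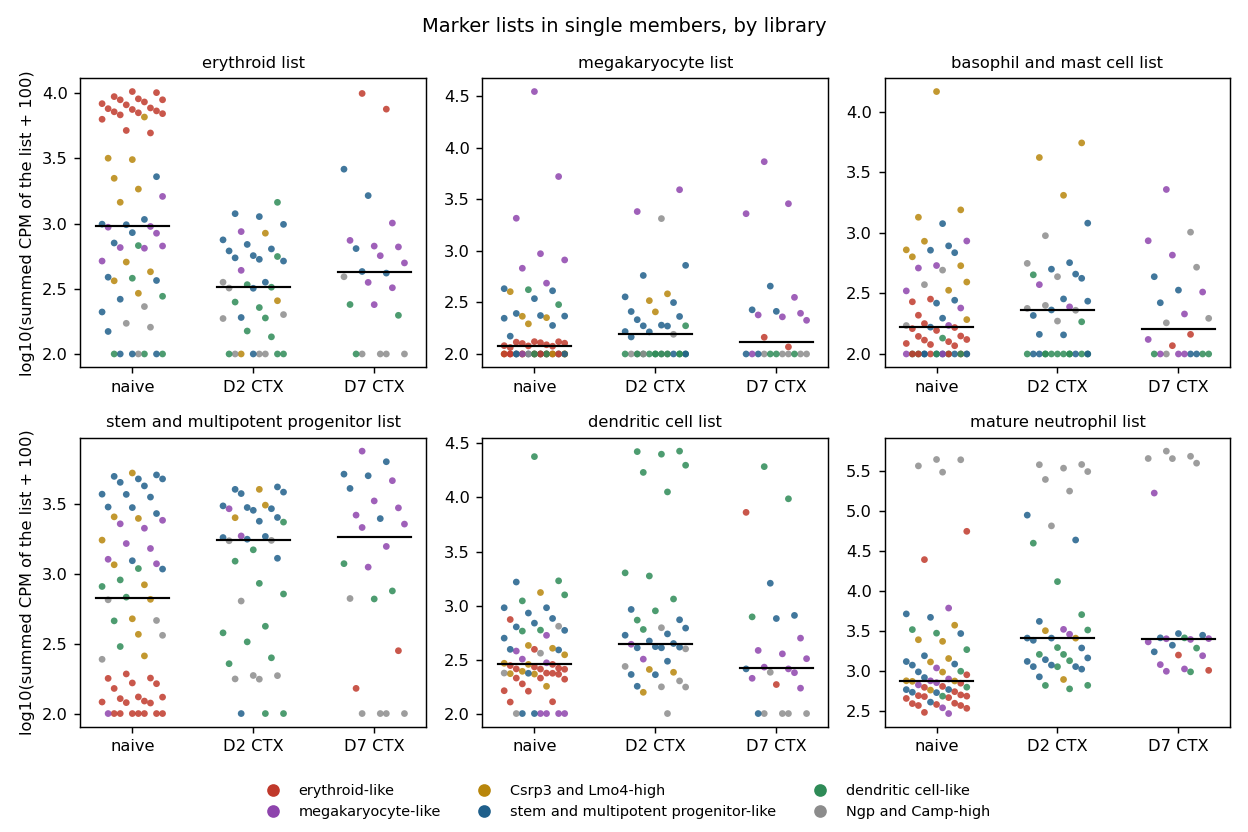
Summed level of 6 marker lists in each member, as log10(CPM + 100), by library. Each point is a cell coloured by its subcluster, and black bars are medians. The erythroid list is at 4853 to 10192 CPM in the 20 naive erythroid-like cells and at 7444 and 9849.5 in the 2 at D7, against at most 1355 at D2. The mature neutrophil list reaches 444955 CPM in naive, 385271 in D2 and 565965 in D7 cells.

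The erythroid-like cells were 0.282% of kept naive cells [0.172, 0.434], 0 of 6126 at D2, which allows a share of up to 0.0490%, and 0.0241% at D7 [0.00292, 0.0871]. The log2 ratio to naive at D7 was −3.54 [−6.69, −1.50]. They were RNA-rich, with a median of 44614.5 UMIs in naive BM, and the 20 cells supplied 64.8% of the naive members' UMIs. After thinning to 2000 UMIs all 20 held at least 10 UMIs of S and G2/M phase genes, against 12 of the 36 naive members outside the erythroid-like and neutrophil-rich groups. Hemoglobin reached 0.108% of UMIs in the naive erythroid-like cells and 8.08% in 1 of the D7 cells, which held 98.8% of the D7 members' Hbb-bs.

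Without the erythroid-like cells the member share was 0.591% in naive BM, 0.637% at D2 and 0.265% at D7, and the log2 ratio to naive was 0.11 at D2 [−0.56, 0.77] and −1.16 at D7 [−1.97, −0.38]. Leaving out the neutrophil-rich cells as well gave 38, 29 and 16 cells, with −0.18 at D2 [−0.93, 0.56] and −1.47 at D7 [−2.41, −0.59]. With only the neutrophil-rich cells left out, the ratio was −0.74 at D2 [−1.44, −0.06] and −1.86 at D7 [−2.71, −1.07]. The D2 interval of that setting lies below 0. The stem-like share was 0.197%, 0.245% and 0.0603%, a log2 ratio of 0.31 [−0.84, 1.47] at D2 and −1.71 [−3.53, −0.15] at D7. The dendritic cell-like share was 0.0845%, 0.196% and 0.0362%, and its ratios of 1.21 [−0.31, 2.91] and −1.22 [−3.85, 1.0] both span 0. The megakaryocyte-like share was 0.113%, 0.0326% and 0.109%, with ratios of −1.79 [−5.06, 0.54] and −0.05 [−1.60, 1.52]. Csrp3 and Lmo4-high cells were 0.141% in naive BM and 0.0490% at D2, a ratio of −1.52 [−4.02, 0.43], and were not found at D7, where 0 cells allow up to 0.0362%. The clusters were built from the same cells, so these shares are descriptive. Like the share of all members, they also depend on how many neutrophils each library held.

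Genes were compared by summing the UMIs of all members of a library. A gene counted as higher or lower at a log2 ratio of at least 1 in CPM with 10 CPM added, a scale that understates the change of low genes. At D2, 253 of 3103 genes were higher (8.15%) and 193 were lower (6.22%). At D7, 93 of 2502 genes were higher (3.72%) and 75 were lower (3%). Without the erythroid-like and neutrophil-rich cells, 42 of 1362 genes were higher at D2 (3.08%) and 22 lower (1.62%), and 7 of 771 were higher at D7 (0.908%) and 10 lower (1.3%). Fewer cells leave fewer UMIs and fewer genes over the minimum, so these counts are also taken over a shorter list. A gene that is low in one library reaches the minimum through the other, where it is high, so counts of list genes past the limit are descriptions and support nothing by themselves. The summed levels of the lists take in every gene of a list. At D7 the share of calls that were higher, 55.4%, was 73.8% when libraries were scaled by the median of gene ratios and 34.5% when the cells' CPM were averaged.

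Of the 14-gene erythroid list, 10 genes had enough UMIs to be compared at D2 and all 10 were lower, beside 6.22% of all genes. Genes reach that minimum mainly through the naive erythroid-like cells, so the count describes those cells. The list's median log2 ratio was −3.78, or −3.55 with the 3 genes at 0 UMIs set to the limit of 3 UMIs, beside −0.05 over all genes. Car1 stood at 1670.3 CPM in naive members, 12 at D2 and 411 at D7. A single cell gave the whole D2 value, and another the whole D7 value. Car2, another carbonic anhydrase, was less uneven, with 1539 CPM in naive members, 197 at D2 and 816 at D7. Ermap was at 292 CPM in naive members, 0 at D2 and 62.5 at D7. Klf1, the erythroid master transcription factor, was chosen after its values were seen and stood at 161, 6.0 and 110.2 CPM.

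At D7, 5 of the 12 measured erythroid genes were lower, beside 3% of all genes, and 0 were higher, with a median of −0.90 beside −0.15 over all genes. Outside the erythroid-like and neutrophil-rich cells the list summed to 816 CPM in naive BM, 374 at D2 and 509 at D7, a log2 ratio of −1.13 [−1.40, −0.86] at D2 and −0.68 [−1.04, −0.34] at D7. There 5 of the 38 naive cells, 4 of them in the Csrp3 and Lmo4-high cluster, 0 of the 29 D2 cells and 1 of the 16 D7 cells reached 2000 CPM of the list. The pooled ratio of all members does not separate the number of erythroid cells from their RNA per cell. The 2 erythroid-like cells at D7, with 7444 and 9849.5 CPM of the list, lay within the naive range of 4853 to 10192. In the stem-like cells the list's ratio was 0.33 [−0.17, 0.84] at D2 and 1.37 [0.69, 2.04] at D7. The D7 value rests on 34 UMIs in 5 cells, which had a median of 543 CPM and ranged from 317 to 2513. The naive stem-like cells had a median of 277 CPM and ranged from 0 to 2189.

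GATA factors, which bind the sequence AGATAA and related motifs, drive many erythroid genes. AGATAA was searched on both strands (TTATCT on the other) in the 250 bases before the RefSeq start sites (build GRCm38.p6) of the erythroid list. Of 14 genes, 10 had a promoter in the table, with 12 promoters in all, and 3 genes held the motif. Counted per promoter rather than per gene, 9.99% of all 32851 promoters of the same length held it. A match is a description of these letters, not a shown binding site. The 3 windows are printed to show the sequence near the start of genes that were near 0 in the D2 members, with the motif in capitals and each window written along the gene's own strand. Epor encodes the erythropoietin receptor and lies on the minus strand (chr9:21963613-21963642), Rhd encodes an Rh antigen and lies on the plus strand (chr4:134864481-134864510), and Icam4 encodes an erythroid adhesion molecule and lies on the plus strand (chr9:21029377-21029406).
Epor: ggtggctgtagcTTATCTgtccccagcctg
Rhd: cccggcagcctgAGATAAgacctttggcgg
Icam4: cagggtgccttcTTATCTcctgcggccagc
In all 3 genes the motif lay between 54 and 38 bases before the start. Epor stood at 68.5 CPM in naive members, 6.0 at D2 and 38.7 at D7. Rhd stood at 177, 0 and 71.5 CPM, and Icam4 at 63.4, 7.50 and 44.7 CPM. All 3 were highest in naive BM and lowest at D2.

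Stem cell genes were higher in the pooled members after CTX, and none passed the limit of 1 log2 unit once the erythroid-like and neutrophil-rich cells were left out. At D2, 4 of 7 measured genes of the 15-gene stem and multipotent progenitor list were higher, against 8.15% of all genes, and at D7 5 of 6 were, against 3.72%. The medians were 1.42 and 1.30. At D2 the median was 0.33 with the cells' CPM averaged, and −0.90, the opposite direction, with the rule applied after thinning to 3000 UMIs. Without the erythroid-like cells the medians were 0.05 and 0.32, and without the neutrophil-rich cells as well they were 0.04 and 0.62, with 0 genes past the limit in either comparison. The summed list then stood at 1758 CPM in naive BM, 1804 at D2 and 2605 at D7, a log2 ratio of 0.04 [−0.11, 0.18] at D2 and 0.57 [0.39, 0.74] at D7.

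Cd34 was at 44.7 CPM in all naive members, 177 at D2 and 98.3 at D7, and at 138, 198 and 192 CPM outside the erythroid-like and neutrophil-rich cells. Its log2 ratios there were 0.52 [0.03, 1.02] and 0.47 [−0.19, 1.12]. Hlf was at 191, 196 and 179.7 CPM in the same cells. Meis1, a homeobox factor of stem cells, was at 234, 180.4 and 389 CPM, a D7 ratio of 0.73 [0.26, 1.19]. Ly6a, which encodes Sca-1, had 0 UMIs in naive members, 1 at D2 and 0 at D7.

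**Figure D3:**
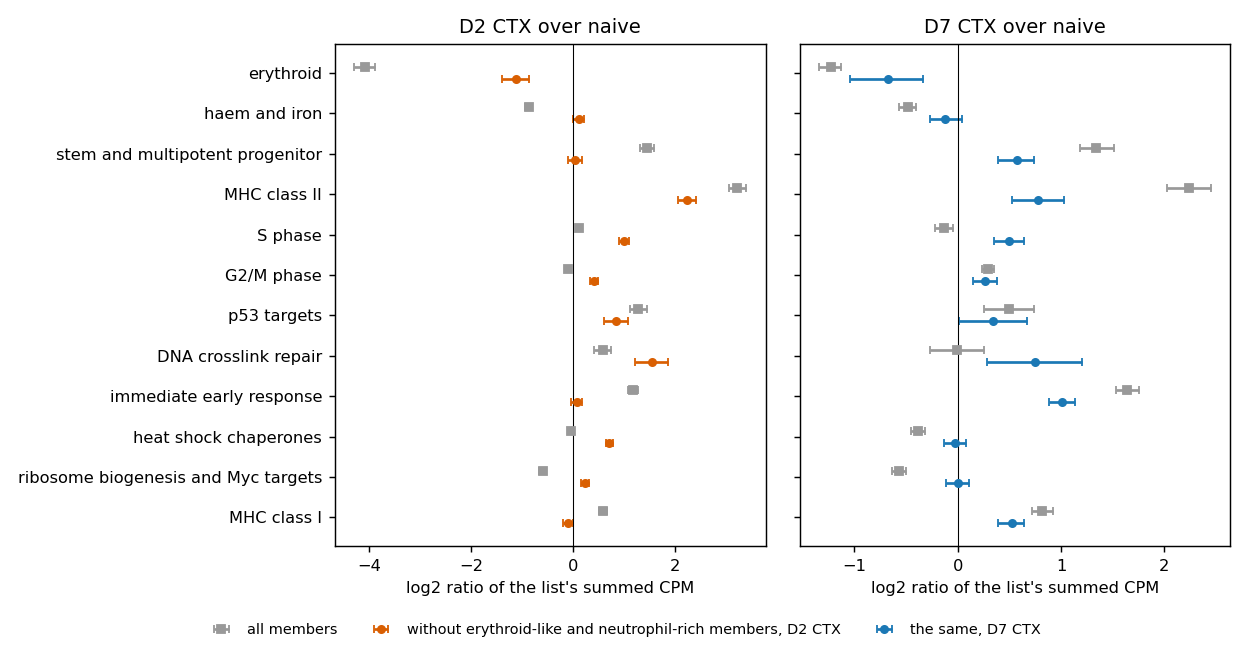
Log2 ratio of the summed CPM of 12 gene lists to naive, at D2 (left) and D7 (right, on a narrower axis), with exact 95% intervals for counting error. Grey squares are all members and coloured circles are members without the erythroid-like and neutrophil-rich cells. At D2 the stem cell list moves from 1.44 to 0.04, and the S phase list from 0.11 to 1.0.

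The direction of G2/M phase genes and the size of the S phase ratio at D2 differed with the members included. The summed G2/M ratio at D2 was −0.10 in all members and 0.41 without the erythroid-like and neutrophil-rich cells. In all members, 0 of 35 measured S phase genes passed the limit at D2 and the median was 0.11, and for G2/M phase genes 0 of 34 were higher, 4 were lower and the median was −0.09, beside 8.15% of all genes higher, 6.22% lower and a median of −0.05. With only the neutrophil-rich cells left out, 1 of 31 S phase and 6 of 30 G2/M genes were lower at D2, beside 5.89% of all genes, and 0 were higher, beside 6.04%. At D7 the medians in all members were −0.15 over 29 S phase genes and 0.21 over 31 G2/M genes. Without the erythroid-like and neutrophil-rich cells, 5 of 16 measured S phase genes were higher at D2 and 0 lower, beside 3.08% of all genes, none of the 16 having reached the minimum on naive UMIs alone, with a median of 0.88 beside 0.10 over all genes. The summed S phase list stood at 2602 CPM in naive BM, 5208 at D2 and 3671 at D7, a ratio of 1.0 [0.90, 1.10] at D2 and 0.50 [0.35, 0.64] at D7. Across these cells the S phase sum had a median of 1423 CPM in naive BM (range 0 to 7432), 4658 at D2 (678 to 9881) and 1533 at D7 (272 to 9058). The ranges overlap and the D2 median is the highest.

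Among the genes, Mcm6 and Mcm7, subunits of the replicative helicase, were at 115 and 140.2 CPM in naive BM, 227 and 259.5 at D2, and 162 and 216 at D7. Slbp, which binds histone mRNA, was at 87.3, 200.1 and 144 CPM. Top2a, the topoisomerase of dividing cells, was at 193, 422 and 353 CPM, and Mki67 at 168, 329.9 and 228 CPM. A single cell held 45.2% of the naive UMIs of Top2a and 42.5% of those of Mki67. After thinning to 2000 UMIs, at least 10 S and G2/M UMIs were found in 12 of 36 naive cells (33.3% [18.6, 51.0]), 20 of 28 D2 cells (71.4% [51.3, 86.8]) and 7 of 16 D7 cells (43.8% [19.8, 70.1]). The naive and D2 intervals do not overlap. The highest ratio at D2 in these cells was that of Hist1h2ap, a replication-dependent histone gene, at 16.1 CPM in naive BM, 405 at D2 and 53.9 at D7. Ccnd1, cyclin D1, was at 18.4, 207 and 29.9 CPM, with 58.5% of its D2 UMIs in 1 cell.

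Among targets of p53, the factor that answers DNA damage, Cdkn1a and Ccng1 were higher at D2. In all members the 18-gene list summed to 389.8 CPM in naive BM and 945 at D2, a log2 ratio of 1.28 [1.11, 1.45], and the D7 median over 2 measured genes was 0.56. At D2, 2 of 4 measured genes were higher, beside 8.15% of all genes, and 0 lower, with a median of 1.15. Cdkn1a and Ccng1, the 2 higher genes, reached the minimum through the D2 cells. The median was 0.47 without likely doublets and 0.61 without the neutrophil-rich members. Cdkn1a, the cell cycle inhibitor p21, was at 9.37 CPM in naive members [4.99, 16.0], 137 at D2 [109.9, 168] and 17.9 at D7 [6.56, 38.9], and in 7 of 62, 24 of 39 and 5 of 24 cells. Ccng1, cyclin G1, was at 31.7, 143 and 38.7 CPM and in 22, 30 and 8 cells. The D2 intervals of both genes lie above those of the other libraries. After thinning, Cdkn1a was in 3.33%, 28.9% and 4.17% of members. Bax, a promoter of apoptosis, was at 131, 180.1 and 95.3 CPM, and Btg2, an antiproliferative gene, at 72.8, 96.0 and 232.

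Without the erythroid-like and neutrophil-rich cells the p53 list summed to 542 CPM in naive BM, 972 at D2 and 689 at D7, a ratio of 0.84 [0.61, 1.08] at D2 and 0.34 [0.01, 0.67] at D7. Its median differed in sign from its sum at D2, −0.09 over the 2 genes with enough UMIs to be measured, Bax and Btg2. Cdkn1a was at 27.6, 112 and 24.0 CPM in these cells and Ccng1 at 18.4, 147 and 35.9, with D2 ratios of 2.02 [1.10, 3.07] and 3.0 [1.94, 4.27]. Btg2 was at 211, 92.4 and 401 CPM. By count, 0 of the 2 measured genes were higher at D2 and 1, Btg2, was lower, beside 3.08% and 1.62% of all genes. Summed p53 targets were highest at D2 in other cell classes too: 235, 1429.7 and 203 CPM in the GMP gate, 812, 1399.6 and 796 in T cells and 807, 1599 and 600.3 in B lineage cells. Subtracting the level of B lineage cells of the same library, which holds those cells' own expression, brought the list's median in all members to 0.00 at D2 and −0.54 at D7. The 20-gene DNA crosslink repair list, which holds Fanconi anaemia and homologous recombination genes, summed to 239 CPM in naive BM, 693 at D2 and 401 at D7 outside the erythroid-like and neutrophil-rich cells. Uhrf1, which many dividing cells express, was its most abundant gene, at 57.5, 178 and 71.9 CPM, and Brca2 was at 29.9, 94.6 and 65.9 CPM.

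The stem-like cells alone had higher S phase and p53 target sums at D2. Their S phase sum was 2567 CPM over 14 naive cells, 5535 over 15 D2 cells and 1378 over 5 D7 cells, a log2 ratio of 1.11 [0.92, 1.30] at D2 and −0.90 [−1.40, −0.43] at D7. G2/M genes summed to 4859, 7165 and 2067 CPM. After thinning, 4 of 13 naive, 11 of 14 D2 and 1 of 5 D7 stem-like cells held at least 10 UMIs of these lists. The p53 list summed to 394, 810.4 and 689 CPM, a ratio of 1.04 [0.56, 1.55] at D2 and 0.81 [−0.02, 1.59] at D7, the latter spanning 0. In these cells Ccng1 had 1 naive UMI, 29 at D2 and 3 at D7.

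Of the 15 stem-like D2 cells 2 were neutrophil-rich. The mature neutrophil list summed to 1082 CPM in naive and 11624 CPM in D2 stem-like cells with them, and to 1417 without. Without them the D2 ratio was 1.04 [0.85, 1.23] for S phase genes and 1.15 [0.66, 1.66] for p53 targets. The neutrophil precursor list summed to 2109 CPM in naive, 407 in D2 and 1115 in D7 stem-like cells. Its ratio was −2.37 [−2.73, −2.02] at D2 and −0.92 [−1.48, −0.39] at D7. Without the neutrophil-rich cells the D2 ratio of that list was −2.49 [−2.89, −2.11]. The list holds Mpo, Elane, Prtn3 and Ctsg, whose UMIs the rule limits in every member, so its sums and ratios are a description. The stem cell list of this cluster, which helped to define it, summed to 3218, 2581 and 4298 CPM, with ratios of −0.32 [−0.51, −0.12] and 0.42 [0.12, 0.71], and Hlf was at 697, 394 and 755 CPM.

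**Figure D4:**
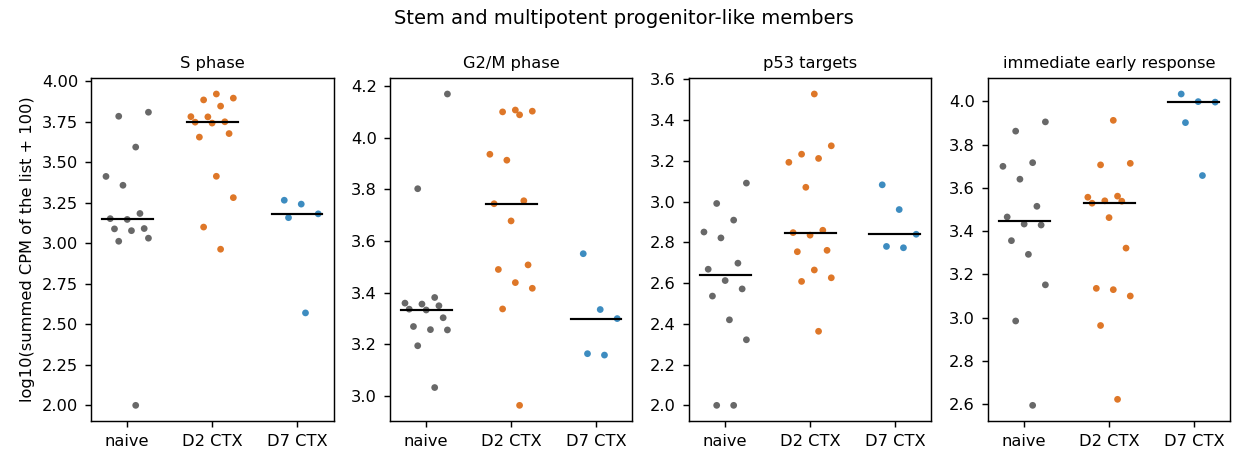
Summed level of 4 gene lists in each stem and multipotent progenitor-like member, as log10(CPM + 100), for 14 naive, 15 D2 CTX and 5 D7 CTX cells. Black bars are medians, and the 4 axes differ in range. S and G2/M phase medians are highest at D2, and the immediate early median is highest at D7.

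Immediate early genes summed higher at D7. They are transcription factors and regulators that cells induce within minutes of a stimulus, including the handling of tissue. In all members 9 of 9 measured genes of the 16-gene list were higher at D7, against 3.72% of all genes, with a median of 1.52, and 5 of 11 were higher at D2, against 8.15%, with a median of 0.89. Outside the erythroid-like and neutrophil-rich cells the list summed to 2785 CPM in naive BM, 2925 at D2 and 5606 at D7, a ratio of 0.07 [−0.04, 0.18] at D2 and 1.01 [0.88, 1.13] at D7. There 1 of 6 measured genes passed the limit at D7, against 0.908% of all genes. Jund, a Jun family factor, was at 391, 326 and 916 CPM and was found in all 16 D7 cells. Jun was at 671, 328 and 1102 CPM. Klf6, a Krüppel-like factor, was at 80.4, 345 and 234 CPM and Fosb at 34.5, 233 and 317, so both were higher at each time than in naive BM. Of the genes named here, Fosb and Klf6 had fewer than 100 naive UMIs in all members. In other classes of the same libraries Fosb stood at 85.2, 58.9 and 180.2 CPM in B lineage cells and at 82.5, 82.1 and 179 in T cells, and Jun at 391, 306 and 555 CPM in B lineage cells and at 96.5, 88.6 and 193 in the GMP gate, each highest at D7. In the GMP gate Fosb, at 2.84, 22.2 and 15.2 CPM, was not. Fos was highest at D2 in T cells, at 80.9, 223 and 169 CPM, and in the GMP gate, at 31.2, 117 and 71.0. In B lineage cells Fos was highest at D7, at 117, 203 and 279 CPM.

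In the stem-like cells the immediate early sum was 2659, 3169 and 8661 CPM. The single cells ranged from 293 to 7941 CPM in naive BM, from 319 to 8074 at D2 and from 4441 to 10720.3 at D7. The 5 D7 cells lay in or above the upper part of the naive range. Egr1 was at 385 CPM in naive BM, 437 at D2 and 1378 at D7. A 12-gene quiescence list summed to 834, 725 and 2395 CPM, a D7 ratio of 1.52 [1.06, 1.98]. Its member Txnip, an inhibitor of thioredoxin that is high in resting cells, was at 257, 124 and 984 CPM. Whether dissociation or handling time differed between the libraries is not given in the sources used here, and its part in the immediate early levels was not tested.

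MHC class II genes were higher in the pooled members after CTX, and the values rested on few cells. In the stem-like cells the list was lower at D2, at 156 and 51.5 CPM in naive BM and at D2, a ratio of −1.60 [−2.80, −0.45]. At D7 the list was higher in these cells, at 525 CPM, a ratio of 1.75 [0.67, 2.83]. These sums rest on 17 naive, 12 D2 and 16 D7 UMIs. In all members 4 of 5 measured genes were higher at D2 with a median of 3.18, beside 8.15% of all genes, and 3 of 3 at D7, beside 3.72%. Cd74 was the one gene of the list that reached the minimum on naive UMIs alone. Without the erythroid-like and neutrophil-rich cells 4 of 4 were higher at D2 (3.08% of all genes), with a summed ratio of 2.23 [2.06, 2.41], and 1 of 2 at D7 (0.908%), with a median of 0.76 and a summed ratio of 0.78 [0.52, 1.03] against 2.24 in all members. H2-Aa, H2-Ab1 and H2-Eb1 had 63, 39 and 34 UMIs in these naive cells and reached the minimum of 100 through the D2 cells, so the D2 count is a description of those cells. Cd74 was at 98.7 CPM in naive members, 978 at D2 and 449.7 at D7. It was found in 3 of 62, 9 of 39 and 5 of 24 cells, and 1 cell held 98.5% of its naive UMIs. H2-Aa was at 45.4, 521 and 268 CPM, and 1 naive cell held 95.2%. Irf8 was at 34.6, 252 and 197 CPM and in 7, 11 and 5 cells. Within the dendritic cell-like cluster Cd74, H2-Aa, H2-Ab1 and H2-Eb1, which lead it, were in 1 to 2 of 6 naive, 6 to 7 of 12 D2 and 2 of 3 D7 cells. Dntt, of lymphoid precursors, had UMIs in 2 naive and 4 D2 cells of that cluster and in none at D7.

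The naive megakaryocyte gene level rested on 1 cell. Pf4 was at 2258 CPM in naive members, 212 at D2 and 649 at D7, and 97.6% of the naive UMIs came from a single member that held 97212 UMIs in all. At least 2000 CPM of the megakaryocyte list were found in 2 naive, 2 D2 and 2 D7 cells outside the neutrophil-rich and erythroid-like groups. Itga2b, the platelet integrin that early progenitors share, was at 54.8, 42.0 and 56.6 CPM, with 65.8% of its naive UMIs in 1 cell. Lyz2, the lysozyme of myeloid cells, was among the lowest D2 ratios outside the erythroid-like and neutrophil-rich cells, at 774, 77.0 and 204 CPM, with 85.5% of its naive UMIs in 1 cell.

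Of the 11 basophil and mast cell genes 1 had enough UMIs to be compared, and it did not pass the limit. That gene, Gata2, which early mast, megakaryocytic and stem cells share, was at 67.7 CPM in naive members, 102 at D2 and 86.4 at D7. Hdc, the histamine-forming enzyme, was at 6.49, 75.0 and 26.8 CPM and in 6, 12 and 5 cells. Cpa3 was at 18.7, 27.0 and 26.8 CPM, with 88.5% of its naive UMIs in 1 cell. Il1rl1, the receptor for IL-33, was chosen after its values were seen and was at 31.0, 6.0 and 5.96 CPM.

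Mature neutrophil genes were higher in all 10 measured list members at D2, beside 8.15% of all genes, and in 7 of 8 at D7, with 1 lower, beside 3.72% higher and 3% lower. Mmp8, with 10 naive UMIs, was among those that reached the minimum through the D2 cells. S100a8, a calcium-binding protein of neutrophils, was at 6215 CPM in naive members, 28208 at D2 and 36281 at D7. It had UMIs in 58 of 62 naive members and in all D2 and D7 members. Most of it lay in the neutrophil-rich cells, and outside the erythroid-like and neutrophil-rich groups the list summed to 873, 1628 and 1611 CPM. T cells, which should lack such genes, had medians of 2251, 4725 and 5179 CPM per cell. In the Ngp and Camp-high cells Mki67 was in 3 of 4 naive, 7 of 7 D2 and 5 of 5 D7 cells.

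Outside the erythroid-like and neutrophil-rich cells the 10-gene heat shock chaperone list summed to 6272 CPM in naive BM, 10234 at D2 and 6163 at D7, a ratio of 0.71 [0.64, 0.78] at D2 and −0.03 [−0.13, 0.08] at D7, and 2 of 6 measured genes were higher past the limit at D2, beside 3.08% of all genes. Hspa8, the constitutive HSP70, was at 1032, 2573 and 1365 CPM in these cells, and Hsp90aa1 at 997, 2074 and 1108. In all members 0 of 8 measured genes passed the limit at D2 and the summed ratio was −0.04. Of 16 measured ribosome biogenesis genes 0 passed the limit at D2, beside 8.15% of all genes higher and 6.22% lower, and 1 was lower at D7, beside 3%, in all members, with medians of −0.48 and −0.36, and the list had summed ratios of 0.23 [0.16, 0.31] and 0.00 [−0.11, 0.11] without the erythroid-like and neutrophil-rich cells.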

How the data were processed

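The authors deposited, for each library, a matrix of raw UMI counts per gene and cell barcode from 10x Genomics 3' libraries. Per the labels, the mouse reads were aligned to mm10, and Cell Ranger 3.1 and Seurat 5.0 are named in the submitters' processing notes. The 3 whole BM libraries were used, and the sorted monocyte libraries were not used here. The study's stated cell numbers are larger than the barcodes in each of these matrices. Cells with at least 200 genes and under 20% of UMIs from mitochondrial genes were kept, and no doublets were removed (cells with the highest Scrublet scores, 0.8% per 1000 cells, were left out as an alternative).

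Members' UMIs were summed per library. Genes with at least 100 UMIs over the 2 libraries and 20 CPM in 1 of them were compared as log2(CPM + 10), without the genes of the rule. Shares have exact binomial and ratios exact conditional 95% intervals, which cover counting error only. The limit that a count of 0 allows is 3 counts. Members were clustered with scanpy 1.11.5 (2000 variable genes, 30 components, 15 neighbours, Leiden resolution 0.8). A cluster was named after the type with most markers among its 10 leading genes, where at least 3 markers of that type were detected. The S and G2/M lists came from Seurat 5.3.0 in R 4.3.3. Genes were named when they belonged to the rule, led a cluster, were among the 4 most abundant of a list or had its largest ratio, or among the 10 highest or lowest ratios. Others shown were chosen after their values were seen. The members, gene lists and comparisons were chosen with earlier results of these data known. The gene comparison was tested on simulated data. Alternatives changed the cell filters, the Kit, azurophil and hemoglobin limits, the depth (thinning), the pseudocount, the filter, the scaling and the members left out. The values of 1 named gene are not reported here.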

Additional observations from a re-analysis of the deposited data

Results flagged for a closer look

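Retnlg, a resistin-like gene of mature neutrophils, was the gene tested in both comparisons that passed the limit in opposite directions in all members. It stood at 85.0 CPM in naive members, 753 at D2 and 20.8 at D7, a log2 ratio of 3.01 at D2 and −1.62 at D7 on the CPM + 10 scale. At D2 it had UMIs in 33 of 39 members with 34.3% of them in 1 cell, and in naive BM 66.1% lay in 1 cell. The difference between the times was not tested, and both use the same naive library.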

How the results depend on the processing

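Values are D2 then D7 against naive. The member share ratio was 0.90 at D2 when the rule was applied after thinning to 3000 UMIs, and −0.57 at D7 with Kit at least 1 UMI. Genes higher and lower, 253 and 193 at D2 and 93 and 75 at D7 as reported, numbered 1078 and 378, and 478 and 278, with no filter on low genes. They numbered 151 and 112, and 60 and 114, with the cells' CPM averaged. With the B lineage level subtracted they were 597 and 755, and 351 and 747. After thinning they were 33 and 10, and 18 and 18. At D7, 115 were lower with a pseudocount of 1 CPM and 44 with scaling by the median of gene ratios. Without the neutrophil-rich members 159 were higher at D2, and 58 and 39 higher and lower at D7. Without the erythroid-like members they were 65 and 22, and 27 and 6. Without both they were 42 and 22, and 7 and 10. These 3 settings were chosen after seeing the data. The stem cell list median of 1.42 at D2 became 0.98 with no filter, 0.33 with averaged CPM, −0.90 after thinning, 0.05 without erythroid-like members and 0.04 without both, and 1.30 at D7 became 0.75, 0.32 and 0.62 with averaged CPM, without erythroid-like members and without both. The p53 list median of 1.15 at D2 became 1.74 with averaged CPM, 0.00 with B lineage subtraction, 0.47 without likely doublets, 1.92 after thinning, 0.61 without neutrophil-rich members and −0.09 without both, and at D7 −0.54 with B lineage subtraction. The S phase median of 0.11 at D2 became 1.93 with B lineage subtraction, 0.78 without erythroid-like members and 0.88 without both, and at D7 0.42 without erythroid-like members and 1.05, from 1 gene, without both. The G2/M median at D2 became 1.11 with B lineage subtraction, 0.79 after thinning, 0.58 without erythroid-like members and 0.54 without both, and 0.81 at D7 after thinning. Apart from the construction of each setting (fewer cells, fewer genes), the cause was not tested. The other 114 values moved by less than their counting or list tolerance or, for counts, stayed within 1.5 times. Among these the D2 share ratio was 0.11 without erythroid-like members, with an interval that spans 0. It was −0.74 [−1.44, −0.06] without neutrophil-rich members and −0.38 [−0.75, −0.01] with Kit at least 1 UMI, both intervals lying below 0. No paired analysis was possible because each condition is 1 library. Clustering at resolution 0.4 gave 4 groups, in which the erythroid-like cells (20, 0 and 2) and the Ngp and Camp-high cells (4, 7 and 5) kept their numbers. The stem-like and the Csrp3 and Lmo4-high groups were lost, and the groups named dendritic cell-like and megakaryocyte-like held 21, 28 and 9 and 17, 4 and 8 cells.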
